A study of Mus musculus with 8 samples.

Results

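The genes of catecholamine synthesis, storage, uptake and breakdown were examined in the ribosome-associated RNA of parvalbumin-expressing (PV+) interneurons of the mouse somatosensory cortex. The set held 9 genes out of 45706 in the deposited tables, found by gene symbol: *Th*, *Ddc*, *Dbh*, *Gch1*, *Qdpr*, *Slc18a2*, *Slc6a3*, *Maoa* and *Maob*. *Th* heads the set because it was among the genes that rose most after CNO in these same samples, so its difference between the groups is given as a description without a test. The other 8 genes were added by function, and the question asked of them was whether they moved with *Th*.

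All 8 samples came from mice of the genotype PvalbFlp/+;Neurod6Cre/+ that received the viral construct AAV-flox-fdio-HA-RPL10a, joined through T2A to myc-hM3Dq, at postnatal day 1 (P1). Flp recombinase in *Pvalb*-expressing cells switches this construct on, and Cre in *Neurod6*-expressing pyramidal cells removes it. It encodes an HA-tagged ribosomal protein for the pulldown and hM3Dq, a designed receptor that excites the cell when it binds the drug clozapine-N-oxide (CNO). At an age of P42 to P70 according to the sample labels, 4 samples were from mice given CNO at 1 mg/kg and 4 from mice given vehicle, by 5 injections over 48 h. For tissue collection the study's methods give a slightly later lower bound of age. Each sample pooled the infected cortex of 4 brains. The vehicle group carried the same virus and alleles as the CNO group, and no CNO-treated group without hM3Dq was analysed here, so that receptor activation and other actions of the drug cannot be told apart.

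Tyrosine hydroxylase, encoded by *Th*, converts tyrosine to L-DOPA and sets the pace of catecholamine synthesis. A cell that makes dopamine also needs aromatic L-amino acid decarboxylase (*Ddc*), the tetrahydrobiopterin cofactor that *Gch1* helps to make and *Qdpr* regenerates, and the vesicular transporter VMAT2 (*Slc18a2*) to load the product. Noradrenergic cells add dopamine β-hydroxylase (*Dbh*), and the monoamine oxidases *Maoa* and *Maob* degrade the products. Cortical interneurons are not regarded as a main source of catecholamines, although *Th* messenger RNA is found in some of them.

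*Th* was higher in every CNO sample than in any vehicle sample, whereas the groups overlapped for the other 8 genes. In TPM, a level corrected for transcript length and depth, *Th* was 7.70, 8.06, 7.62 and 11.96 in CNO replicates 1 to 4 and 2.34, 3.0, 3.54 and 2.39 in vehicle replicates 1 to 4. The lowest CNO value lay above the highest vehicle value, and CNO replicate 4 stood above the other CNO samples. The means were 8.84 ± 2.09 TPM with CNO and 2.82 ± 0.57 TPM with vehicle (SD, n = 4 each). These levels rested on 277 to 460 estimated counts with CNO and 73 to 132 with vehicle. The log2 fold change of the normalized counts was 1.72 (SE 0.22), or 3.29-fold.

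*Th* stayed higher with CNO when single libraries were left out or a marker index was added as a covariate. Its log2 fold change lay between 1.505, without CNO replicate 4, and 1.88, without vehicle replicate 3. With an index of PV+ against pyramidal markers as a covariate it was 1.47. That index was lowest in vehicle replicate 1 (-0.274) and highest in CNO replicate 4 (2.04), and it covers no other cells. The part of the make-up of the pulldown in the level of *Th* was not tested. Among the 17495 genes tested, the level of *Th* ranked 12995 in the vehicle samples and 9901 in the CNO samples. In the vehicle samples its level was above that of 25.7% of tested genes.

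**Figure D1:**
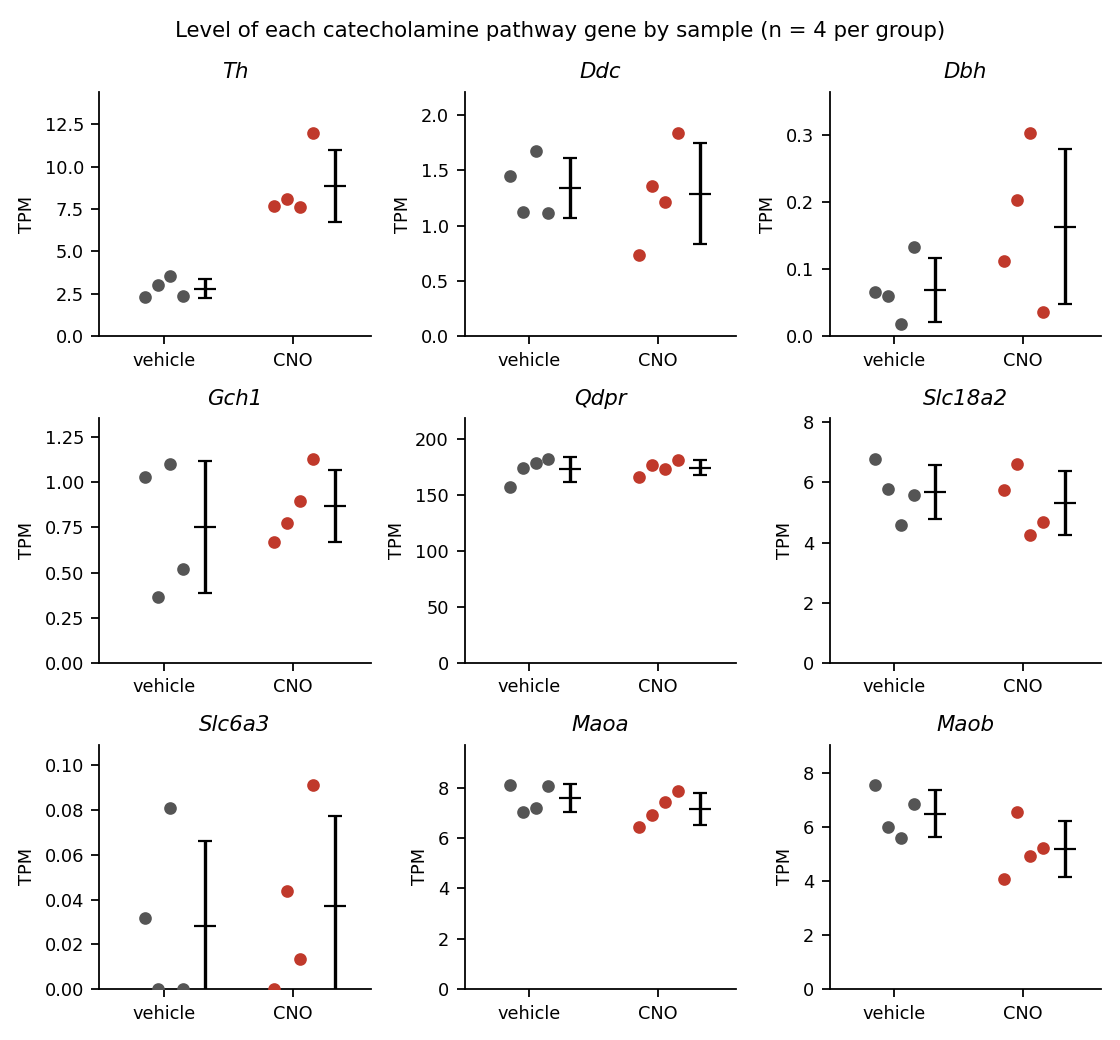
Level of each of the 9 genes in TPM (vertical axes, starting at 0) in the 4 vehicle samples (grey) and the 4 CNO samples (red), ordered by replicate from left to right, with the mean ± SD in black. *Th* is the gene whose CNO samples, at 7.62 to 11.96 TPM, all lie above its vehicle samples, at 2.34 to 3.54 TPM, while the groups overlap in the other 8 panels. The lower error bars of *Slc6a3* end at the axis.

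The *Th* gene lies on chromosome 7 from 142892752 to 142931128 on the minus strand of GRCm38, with no other annotated gene across it. The stretch before its transcription start is shown because *Th* is known as a gene that answers to cyclic AMP and calcium through a cyclic AMP response element (CRE). The sequence is from the RefSeq promoter window of GRCm38.p6, covers chr7:142900015-142900245 on the minus strand, and ends at the base before the annotated start of the shorter coding transcript. Capitals mark a CRE (TGACGTCA) near the 3′ end and an AP-1-type match (TGANTCA, the letters bound by FOS and JUN dimers) near the 5′ end.
Th: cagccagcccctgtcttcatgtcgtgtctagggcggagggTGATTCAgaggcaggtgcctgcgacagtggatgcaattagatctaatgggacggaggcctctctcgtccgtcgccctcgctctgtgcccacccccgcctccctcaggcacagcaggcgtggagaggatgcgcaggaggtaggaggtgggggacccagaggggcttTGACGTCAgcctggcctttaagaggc

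The full CRE was not particular to *Th* within the pathway. It was also present in the window of *Slc18a2*, at chr19:59260863-59260892 on the plus strand, where capitals again mark the CRE.
Slc18a2: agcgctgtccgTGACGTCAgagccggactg

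The CRE began 45 bases upstream of the RefSeq start site of *Th* and 4 bases upstream of that of *Slc18a2*. Of 32817 RefSeq windows, each of 250 bases before to 50 after a start, 1.79% held this motif on either strand. The AP-1 letters, which the CRE does not contain, were present in 7.81% of the windows and among the members in those of *Th* and *Ddc*. The NBRE (AAAGGTCA), a motif bound by the NR4A receptors, was present in 1.51% of the windows and among the members in that of *Ddc* alone. *Dbh*, *Gch1*, *Slc6a3*, *Maoa* and *Qdpr* held none of the 3 motifs in their windows, and *Maob* was not searched. These matches are letters in a fixed window, and binding was not measured.

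The groups overlapped for the enzyme that acts directly after tyrosine hydroxylase. *Ddc* was 0.734, 1.36, 1.21 and 1.84 TPM in CNO replicates 1 to 4 and 1.45, 1.12, 1.67 and 1.11 TPM in vehicle replicates 1 to 4. The lowest and the highest of the 8 values were both CNO samples, so the CNO group enclosed the vehicle group. Its log2 fold change was -0.16 (SE 0.33, 95% confidence interval -0.89 to 0.57, edgeR quasi-likelihood test, adjusted p = 0.90). The interval reaches an increase of 1.49-fold. *Ddc* had 20 to 67 counts per sample, and its direction turned without CNO replicate 1 (0.08) or vehicle replicate 3 (0.01) and when transcript length was modelled (0.03).

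The ratio of *Th* to *Ddc*, both per length, was therefore set apart between the groups. It was 10.5, 5.95, 6.29 and 6.51 with CNO and 1.61, 2.69, 2.12 and 2.15 with vehicle. The groups did not overlap, which follows from the choice of *Th* and the overlapping levels of *Ddc*.

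*Dbh*, the enzyme that turns dopamine into noradrenaline, was close to the detection limit. Its counts were 6, 10, 16 and 2 in the CNO samples and 3, 3, 1 and 7 in the vehicle samples, or 0.0360 to 0.303 TPM and 0.0186 to 0.133 TPM. The means were 0.163 ± 0.115 TPM with CNO and 0.069 ± 0.047 TPM with vehicle, higher with CNO in overlapping groups. *Dbh* did not pass the filter on low counts and was not tested in the main setting. At this depth 3 counts correspond to 0.0607 to 0.0681 CPM (counts scaled to library size), and so few counts do not settle whether *Dbh* differed.

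Of the genes for the cofactor, *Gch1*, whose product GTP cyclohydrolase opens tetrahydrobiopterin synthesis, overlapped fully. It was 0.668, 0.777, 0.899 and 1.13 TPM with CNO and 1.03, 0.363, 1.10 and 0.521 TPM with vehicle. Vehicle replicates 1 and 3 were as high as the higher CNO samples, and vehicle replicates 2 and 4 were lower than every CNO sample. The log2 fold change was 0.28 (SE 0.36, 95% confidence interval -0.52 to 1.09, edgeR adjusted p = 0.84). With 20 to 69 counts per sample this interval still includes a 2.12-fold increase. Whether the change of *Gch1* was smaller than that of *Th*, which was chosen for its rise, was not tested. The size of the log2 fold change of *Gch1* depended on single samples. It was 0.04 without vehicle replicate 2 and 0.14 without vehicle replicate 4, but 0.43 without vehicle replicate 1 and 0.57 without vehicle replicate 3. Without CNO replicate 4 it was 0.08. The upper limit of the interval lay between 1.75-fold and 2.62-fold when single samples were left out.

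*Qdpr*, which encodes the dihydropteridine reductase that recycles the cofactor, was by far the most abundant member. Its level was 166, 177, 173 and 181 TPM in CNO replicates 1 to 4 and 157, 174, 178 and 182 TPM in the vehicle samples. Vehicle replicate 1 was the lowest, and all other samples lay within a narrow band. The log2 fold change was 0.09 (SE 0.10, 95% confidence interval -0.13 to 0.32, edgeR adjusted p = 0.82). *Qdpr* is also expressed in oligodendrocytes, whose 8 markers summed to 573 to 1036 TPM with CNO and 790 to 1017 TPM with vehicle, and 14.5% of its transcript 31-base words were shared with 1 other gene, *Gm42413*. The part of either in the level of *Qdpr* was not tested.

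The vesicular transporter was detected in every sample and the groups overlapped. *Slc18a2* was 5.74, 6.61, 4.24 and 4.67 TPM in CNO replicates 1 to 4 and 6.78, 5.77, 4.58 and 5.58 TPM in vehicle replicates 1 to 4. The groups covered nearly the same range. The log2 fold change was -0.03 (SE 0.14, 95% confidence interval -0.34 to 0.29, edgeR adjusted p = 0.96). *Gm29261* is annotated across *Slc18a2* on the opposite strand and shared 1.51% of its 31-base words. Reads of such shared stretches cannot be told apart where strand was not used in counting. Genes annotated on the opposite strand also cross *Ddc* (*1700042O10Rik*), *Qdpr* (*AC092711.4*) and *Gch1* (1 gene). Another gene lies across *Gch1* on its own strand, where strand would not separate reads of a shared stretch. These are overlaps of gene spans, and whether the transcripts overlap was not examined. The only gene found to share 31-base words with *Qdpr* was *Gm42413*. Whether *AC092711.4* is the same gene under another name was not checked.

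The plasma membrane dopamine transporter was nearly undetected. *Slc6a3* had 0, 3, 1 and 7 counts in the CNO samples and 2, 0, 6 and 0 in the vehicle samples. It was not tested, and the counts of both groups reached from 0 to a few.

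Neither monoamine oxidase passed the test. *Maoa*, the isoform that prefers serotonin and noradrenaline, was 6.42, 6.90, 7.44 and 7.86 TPM with CNO and 8.09, 7.02, 7.20 and 8.06 TPM with vehicle. These values gave a log2 fold change of -0.01 (SE 0.11, 95% confidence interval -0.25 to 0.23, edgeR adjusted p = 0.98). *Maoa* was thus measured with enough counts, 573 to 737 per sample, that the interval reaches no more than a 1.17-fold increase.

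*Maob*, the isoform known from astrocytes and serotonergic neurons, was 4.07, 6.57, 4.95 and 5.25 TPM with CNO and 7.56, 6.0, 5.61 and 6.85 TPM with vehicle. CNO replicates 1, 3 and 4 lay below the lowest vehicle sample and CNO replicate 2 lay within the vehicle range. The log2 fold change was -0.23 (SE 0.15, 95% confidence interval -0.56 to 0.10, edgeR adjusted p = 0.82). The 6 astrocyte markers summed to 172 to 271 TPM with CNO and 217 to 323 TPM with vehicle, with 5 of them lower with CNO, none at an adjusted p under 0.05. All 6 were detected, and their part in the level of *Maob* was not tested.

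In order of mean TPM the vehicle samples ran *Qdpr*, *Maoa*, *Maob*, *Slc18a2*, *Th*, *Ddc*, *Gch1*, *Dbh* and *Slc6a3*. In the CNO samples *Th* (8.84 ± 2.09 TPM) stood in the second place, before *Maoa* (7.16 ± 0.63 TPM), *Slc18a2* (5.32 ± 1.07 TPM) and *Maob* (5.21 ± 1.04 TPM). The gap from the mean of *Th* to that of *Maoa* was within the SD of *Th*, although the ratio of *Th* to *Maoa* was 1.02 to 1.52 in the 4 CNO samples, above 1 in each, and 0.289 to 0.491 with vehicle. *Slc18a2* and *Maob* did not differ beyond their spread in either group. In the vehicle samples *Th* (2.82 ± 0.57 TPM) lay clear of both *Slc18a2* (5.68 ± 0.90 TPM) above it and *Ddc* (1.34 ± 0.27 TPM) below it. The ratio of *Th* to *Slc18a2* was 1.22 to 2.56 with CNO and 0.344 to 0.772 with vehicle.

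Of the 7 members that passed the filter, 3 had a positive and 4 a negative log2 fold change, and of the 6 other than *Th* 2 were positive. The median of these 6 was -0.02, beside 0.00 over all 17495 genes tested. No member was called at an adjusted p under 0.05 with a change over 1.5-fold and a mean TPM over 1 by the edgeR quasi-likelihood test, which called 0% of all genes. Of the 6 tested members other than *Th*, none had an unadjusted p under 0.05, where 1.45% of tested genes were higher and 2.66% lower. In normalized CPM the groups overlapped for each of these 6, while they did not overlap for 2.42% of tested genes. None of the 6 was called by the edgeR likelihood ratio test with robust dispersion or by DESeq2, which called 0.0686% and 0.0572% of genes. Without a filter on low counts the quasi-likelihood test called 0.0109% of genes and no member other than *Th*. *Th* was chosen on this contrast, so calls of *Th* itself are not read as a result.

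**Figure D2:**
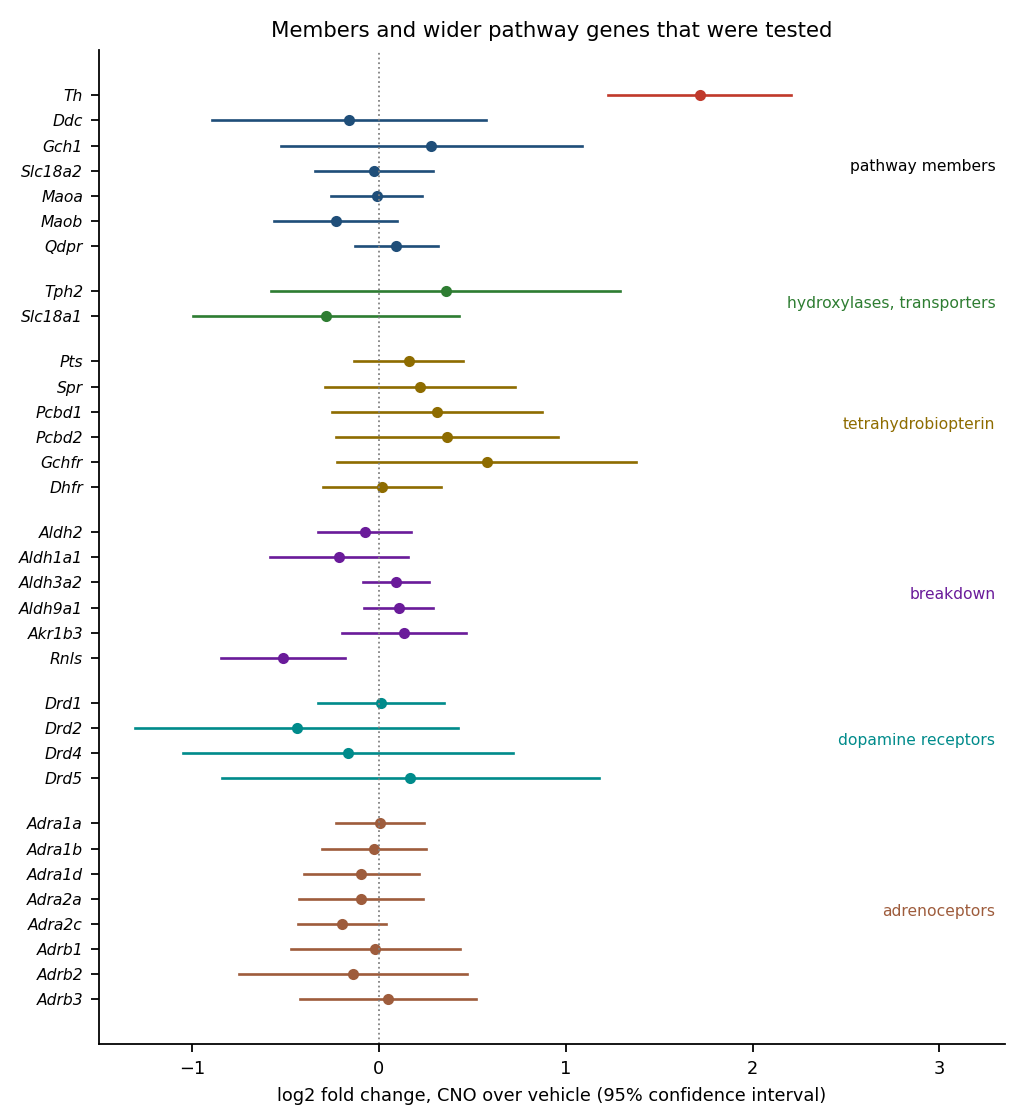
Log2 fold change of CNO over vehicle (horizontal axis) with its 95% confidence interval from edgeR for the 7 tested members and 26 of the 27 tested genes of the wider pathway, grouped by role. *Th*, in red at 1.72, stands to the right of all other points, which lie between -0.51 (*Rnls*) and 0.58 (*Gchfr*). *Th* was chosen on this contrast, so its interval is drawn as a description.

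A wider list of 34 genes covered other aromatic amino acid hydroxylases and monoamine transporters, the rest of the tetrahydrobiopterin pathway, further breakdown enzymes and the receptors for dopamine and noradrenaline. Of these 34 genes 27 were tested, 15 with a positive and 12 with a negative log2 fold change, with a median of 0.01. At an unadjusted p under 0.05 none was higher and 1 was lower with CNO, beside the 1.45% and 2.66% of all genes. At an adjusted p under 0.05 there was none by the edgeR quasi-likelihood test.

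The gene at an unadjusted p under 0.05 was *Rnls*, which encodes renalase, a flavoprotein first described as an amine-degrading enzyme. It was 4.61, 4.45, 4.35 and 3.71 TPM with CNO and 7.45, 6.66, 6.02 and 5.78 TPM with vehicle. Every CNO sample lay below every vehicle sample. The log2 fold change of *Rnls* was -0.51 (SE 0.15, 95% confidence interval -0.84 to -0.18), and it did not pass the adjustment (edgeR adjusted p = 0.82). In normalized CPM the groups did not overlap for 2 of the 27 tested genes of the wider list, beside 2.42% of all tested genes. The other of these 2, also a breakdown gene, was higher with CNO (log2 fold change 0.11, edgeR adjusted p = 0.82).

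The 6 tetrahydrobiopterin genes all had positive log2 fold changes, between 0.02 and 0.58 with a median of 0.27, and none had an unadjusted p under 0.05. The most abundant, *Pts*, which catalyses the step after *Gch1*, was 48.0 ± 5.9 TPM with CNO and 45.3 ± 3.1 TPM with vehicle, with a log2 fold change of 0.16 (SE 0.13, edgeR adjusted p = 0.82). Their summed level was 76.9 TPM in vehicle replicate 1, the library with the lowest PV+ markers, and 97.7 to 134 TPM in the other 7 samples.

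Among the 7 breakdown genes 4 were positive and 3 negative. The 4 tested dopamine receptors were split evenly by sign, and *Drd1*, the most abundant, was 16.6 ± 3.2 TPM with CNO and 17.4 ± 1.7 TPM with vehicle (log2 fold change 0.01, SE 0.15, edgeR adjusted p = 0.99). Of the 8 tested adrenoceptors 6 were negative and 2 positive, with *Adrb1*, the β1 receptor, at 39.8 ± 12.7 TPM with CNO and 42.2 ± 11.7 TPM with vehicle (log2 fold change -0.02, SE 0.21, edgeR adjusted p = 0.98). *Drd3*, with at most 1 count per sample, and *Adra2b* did not pass the filter on low counts, and none of the 12 tested receptors passed the test.

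The noradrenaline transporter *Slc6a2* had no count in any sample, and *Pnmt*, which makes adrenaline, *Tph1* and the serotonin transporter *Slc6a4* did not exceed 10 counts in any. The most abundant gene of that sublist by TPM was *Slc18a1* (VMAT1), at 5.72 ± 3.43 TPM with CNO and 10.4 ± 3.8 TPM with vehicle. It had at most 85 counts per sample, its log2 fold change was -0.28 (SE 0.32, edgeR adjusted p = 0.83), and its TPM values rest on the short transcripts to which these few counts were assigned.

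Genes of midbrain dopamine and noradrenergic cell identity were checked beside *Th*. Of 11 such genes, *Lmx1a*, *Foxa1* and *Foxa2* had no count in any sample, 7 including these did not exceed 3 counts in any sample, and 3 were tested. *Nr4a2*, which encodes NURR1 and is also expressed in deep cortical layers, was 24.3 to 44.5 TPM with CNO and 36.2 to 48.4 TPM with vehicle (log2 fold change -0.22, SE 0.14, edgeR adjusted p = 0.82). *Ret*, a receptor tyrosine kinase for GDNF family ligands, was singled out after its values were seen. *Ret* was 2.25, 1.73, 2.27 and 2.34 TPM with CNO and 0.722, 1.5, 1.51 and 1.59 TPM with vehicle. The lowest value was that of vehicle replicate 1, the library with the lowest PV+ markers. In normalized CPM the groups overlapped, with a lowest CNO value of 5.01 and a highest vehicle value of 5.11. Its log2 fold change was 0.69 (SE 0.25, edgeR adjusted p = 0.82, unadjusted p = 0.0199).

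The genes nearest to *Th* on chromosome 7 did not pass the test. The 3 nearest tested genes on the side of lower coordinates were *Igf2*, *Mrpl23* and *Lsp1*, and those on the other side *R74862*, *Cd81* and *Tssc4*, at distances of 90656 to 397885 bases. Their log2 fold changes were between -0.51 (*Lsp1*) and 0.32 (*Mrpl23*). *Lsp1*, an actin-binding protein of leukocytes, was lower with CNO at an unadjusted p of 0.0442 (edgeR adjusted p = 0.82), opposite to *Th*.

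The average transcript length that Salmon assigned, read from the ratio of counts to TPM and scaled to the median gene of each sample, was nearly constant for *Th*. It was 0.650 to 0.667 with CNO and 0.650 to 0.669 with vehicle, so that the TPM and the count difference agree. *Ddc* varied, from 0.483 in CNO replicate 1 and 0.571 in CNO replicate 4 to 0.667 to 0.709 in the other 6 samples. None of the 7 members differed between the groups by a two-sided exact permutation test, with adjusted p from 0.63 to 0.69 over the 7 members. For *Ddc* the unadjusted p was 0.143, and the smallest that 4 against 4 samples can give is 0.0286.

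The genes whose pattern was most like that of *Th* over the 8 samples, among 15172 genes with a mean TPM over 1, were *Fam150b* (Pearson r of log2 CPM 0.98), *Dusp1* (0.98), *Btg1* (0.98), *Proser3* (0.97) and *Cited2* (0.95). *Fam150b*, a ligand of ALK-family receptors, was 8.17 TPM with CNO and 3.20 TPM with vehicle on average. *Dusp1*, a phosphatase of MAP kinases, was 128 and 61.4 TPM. Of the members, *Qdpr* had r = 0.60 with *Th*, *Gch1* 0.44, *Maoa* 0.06, *Ddc* -0.07, *Slc18a2* -0.25 and *Maob* -0.60. The 8 points share the difference between the groups, so these values describe the order of samples and not a relation within a group.

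After the group means were taken off, *Th* was most like *Mapkapk2* (0.99), *Stk40* (0.98), *Arih2* (0.98), *1700084E18Rik* (0.97) and *Ankrd13a* (0.97), none of which was among the 5 above. These 5 had the highest of 15172 values of r over 8 samples, and no test was made of them. Over these 8 deviations the members had r between -0.52 (*Slc18a2*) and 0.75 (*Qdpr*), above 21.9% and 93.4% of the genes compared.

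The make-up of the pulldown differed between samples and was set beside *Th*. The 12 PV+ interneuron markers summed to 2669 to 4139 TPM with CNO and 1255 to 3299 TPM with vehicle, all 12 with a positive log2 fold change, a median of 0.41 and none at an adjusted p under 0.05. At an unadjusted p under 0.05 by edgeR there was 1, *Gad2* (log2 fold change 0.52), named after its value was seen. *Pvalb* itself was 820 to 1160 TPM with CNO, 300 TPM in vehicle replicate 1 and 943 to 1050 TPM in the other 3 vehicle samples. The 10 pyramidal markers summed to 660 to 900 TPM with CNO and 838 to 1033 TPM with vehicle, and *Slc17a7* was 331 to 493 and 436 to 547 TPM. Of the markers of other cells, 9 of 10 pyramidal, 8 of 8 oligodendrocyte, 5 of 6 astrocyte and 5 of 5 microglial genes had a negative log2 fold change. The vascular markers went the other way, with 6 of 7 positive and a median of 0.28. Of the 8 VIP and SST interneuron markers 3 were positive and 5 negative. None of these had an adjusted p under 0.05 by the edgeR quasi-likelihood test, and 1, *P2ry12* of microglia (-0.38), named after its value was seen, had an unadjusted p under 0.05. The medians were -0.13 for pyramidal, -0.23 for oligodendrocyte, -0.13 for astrocyte and -0.19 for microglial markers, and their part in the levels of the 9 genes was not tested. *Fos*, an immediate early gene, was 36.9 to 83.7 TPM with CNO and 13.8 to 20.6 TPM with vehicle. All samples had 44064161 to 49413273 counts. In such pooled RNA, more cells that express a gene and more RNA per cell cannot be told apart.

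**Figure D3:**
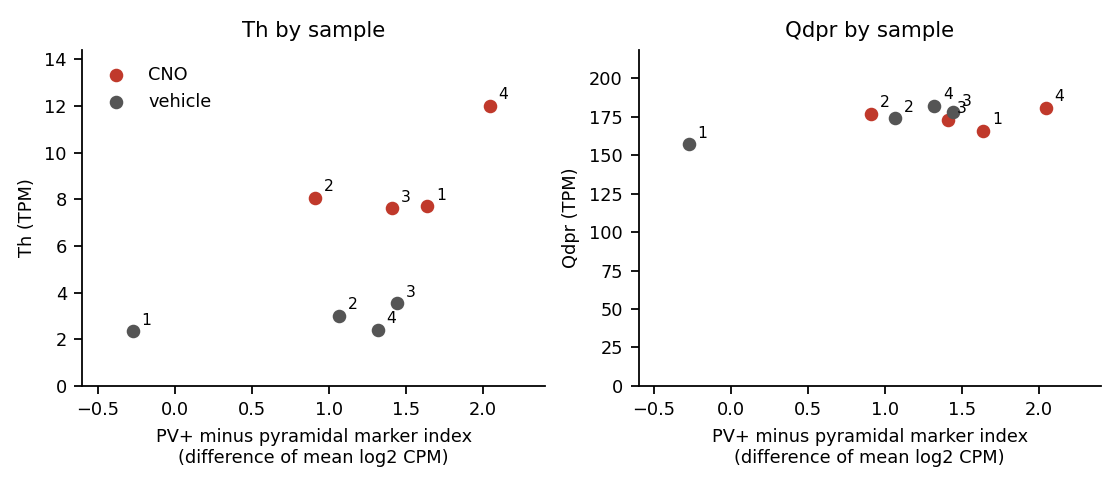
Level of *Th* (left) and *Qdpr* (right) in TPM against the marker index, the mean log2 CPM of the PV+ markers minus that of the pyramidal markers, with each of the 8 samples labelled by its replicate number. *Th* separates by treatment (red, CNO, and grey, vehicle) among the 7 samples with an index between 0.909 and 2.04, while *Qdpr* lies between 157 and 182 TPM in every sample.

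In the 7 samples apart from vehicle replicate 1, whose index was -0.274, the index was 0.909 to 2.04 with CNO and 1.07 to 1.44 with vehicle. CNO replicate 2 had the lowest index of these 7 samples and a *Th* level of 8.06 TPM, above the vehicle samples. Without vehicle replicate 1 the log2 fold change of *Th* was 1.61. CNO replicate 4 had both the highest index and the highest *Th*. The 8 markers of VIP and SST interneurons summed to 446 to 482 TPM with CNO and 425 to 567 TPM with vehicle, and *Sst* was 129 to 155 and 104 to 183 TPM. Of 13 tested markers of PV+ subtypes 8 were positive and 5 negative with a median of 0.06, and none at an adjusted p under 0.05 by the edgeR quasi-likelihood test. At an unadjusted p under 0.05 none was higher and 2, named here after their values were seen, were lower, beside 2.66% of all genes. These were *Tpbg* (log2 fold change -0.35) and *Reln* (-0.29), both with an edgeR adjusted p of 0.82. The part of other cells in the level of *Th* was not tested.

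**Figure D4:**
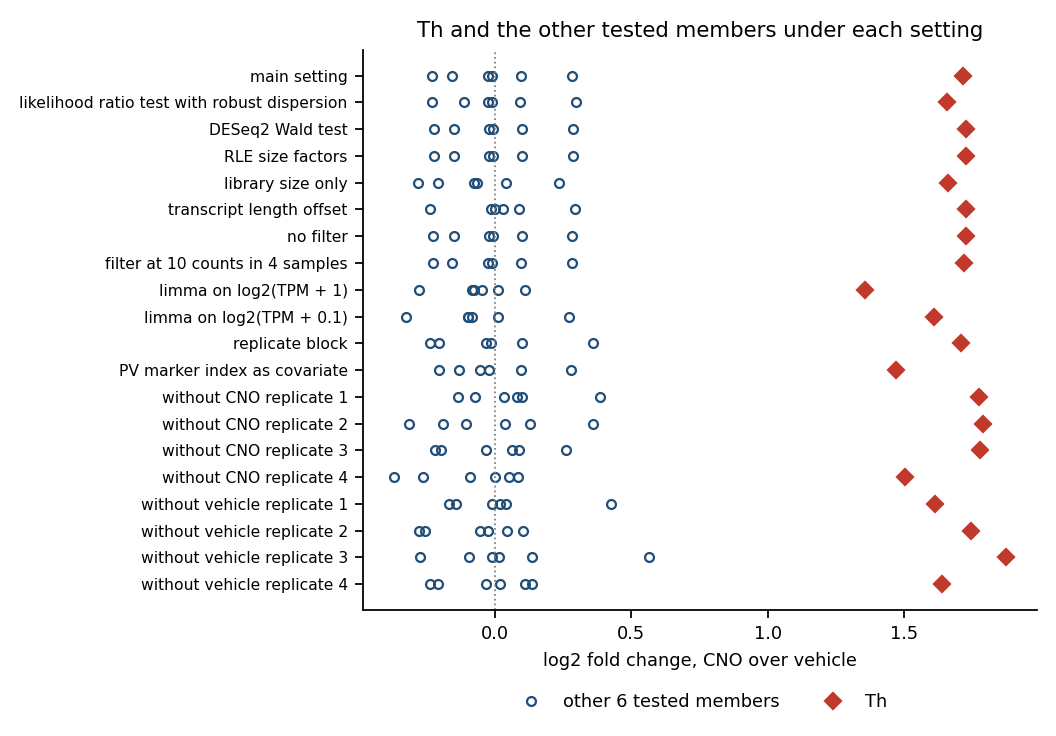
Log2 fold change of CNO over vehicle (horizontal axis) for *Th* (red diamonds) and the other 6 tested members (open circles) under the main setting and 19 alternatives (rows). *Th* stays between 1.36 and 1.88, and the other members between -0.37 and 0.57.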

How the data were processed

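Ribosome-associated RNA was immunoprecipitated through the HA tag, amplified with the SMARTer Ultra Low kit and sequenced paired-end, in 4 CNO and 4 vehicle samples. According to the submitters' notes, the authors used Trim Galore, STAR and Salmon on the GRCm38 (mm10) build. The authors deposited estimated counts per gene without normalization. The authors also deposited TPM values, corrected for transcript length and sequencing depth. Whether strand was used is not given in the sources used here.

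Estimated counts were rounded to whole numbers. A gene was dropped if at least 4 samples had fewer than 10 counts, which left 17495 of 45706 genes and 7 of the 9 members. The difference between treatments was tested with the quasi-likelihood method of edgeR 4.0.16 in R 4.3.3 with TMM normalization and Benjamini-Hochberg adjustment over all genes tested. A call needed an adjusted p under 0.05, a change over 1.5-fold and a mean TPM over 1. DESeq2 1.42.0, limma 3.58.1 on log2(TPM + 1) and log2(TPM + 0.1), other scalings, filters and covariates, and leaving out each sample were alternatives. Correlations used log2 CPM with a prior count of 2. The totals of 44064161 to 49413273 counts limit precision for *Dbh* and *Slc6a3*, and intervals cover the spread between these samples. Whether samples of a group came from separate litters is not given, and p-values measure the spread between pools.

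Named genes were the 9 members, wider-list genes at an unadjusted p under 0.05 or most abundant in their sublist, 3 tested neighbours of *Th* on each side, the 5 genes most like *Th* by each measure, and 5 context genes (*Fos*, *Pvalb*, *Slc17a7*, *Sst* and *Nr4a2*). Values of some list genes are not reported here. Other markers were used as lists. The members and lists were chosen with earlier results of these data known. Positions were taken from the GENCODE mouse annotation, release 21 (GRCm38), where 45143 of the identifiers were found, and promoter windows from RefSeq on GRCm38.p6, with entries for 8 of the 9 members. Of the marker lists fixed for other cells, the 5 microglial markers summed to 37.3 to 59.5 TPM with CNO and 47.2 to 70.0 TPM with vehicle, and the 7 vascular markers to 32.4 to 88.8 and 51.5 to 70.6 TPM.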

Additional observations from a re-analysis of the deposited data

Results flagged for a closer look

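The *Th* level of CNO replicate 4 stood apart from its group. Its log2 CPM was 3.28, against 2.56 to 2.60 in the other 3 CNO samples, and the gap to the nearest of them was 0.937 of the range of the group. Among 28 groups of 4 values examined in this way (level and average transcript length of 7 members in 2 groups), this was the 1 found, where chance gives about 1.4. CNO replicate 4 also had the highest marker index (2.04), *Ddc* (1.84 TPM) and *Gch1* (1.13 TPM) of the CNO samples. Without it the log2 fold change of *Th* was 1.505 in place of 1.72, and the groups stayed apart.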

How the results depend on the processing

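*Th* was higher with CNO in the main setting and all 19 alternatives. Its log2 fold change was 1.36 by limma on log2(TPM + 1), which understates changes of low genes, and 1.505 to 1.88 when single samples were left out. No member was called in the main setting or without any 1 sample (0 to 0). By the likelihood ratio test, DESeq2 and without a filter 1 was called, *Th*, which was chosen on this contrast. Members other than *Th* higher with CNO numbered 2 in the main setting, 4 with the transcript length offset, 4 without a filter, where *Dbh* and *Slc6a3* enter, and 2 to 4 when samples were left out. Wider pathway genes at an unadjusted p under 0.05 were 2 lower with library size only and by limma with either pseudocount, and 0 to 1 higher and 1 to 2 lower when samples were left out.

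Values near 0 changed sign. The length offset gave 0.029 for *Ddc* and 0.0004 for *Maoa*, and the marker index 0.096 for *Slc18a2* and -0.021 for *Qdpr*. Leaving out samples gave -0.37 to 0.081 for *Ddc*, -0.093 to 0.038 for *Maoa* and -0.11 to 0.062 for *Slc18a2*. *Gch1*, 0.28 in the main setting, kept its sign at 0.043 to 0.57. Unscaled, the length difference was 0.0685 for *Th*, 0.0675 for *Gch1*, 0.0670 for *Slc18a2* and 0.0669 for *Maoa* on the log2 scale, in place of small negative values.

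Same-numbered samples deviated together with r of 0.03, -0.03, 0.16 and 0.24, and 1 of 4 correlated best with its own number, so the numbers were not taken as pairs. With the replicate block the log2 fold change of *Th* was 1.71 and 0 members were called. *Dbh* and *Slc6a3* were limited by depth.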

Other observations

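Among the 6 tested members other than *Th*, 15 pairs were compared over the 8 samples on log2 CPM. The pair of lowest unadjusted p for r was *Slc18a2* and *Qdpr*, with Pearson r = -0.69 (exact permutation p = 0.0398, adjusted p = 0.41 over 15 pairs) and Spearman rho = -0.79 (exact permutation p = 0.0279). Without the 2 samples farthest from the median of *Slc18a2*, r was -0.78. *Ddc* and *Gch1* had Pearson r = 0.53 (exact permutation p = 0.182, adjusted p = 0.46) and Spearman rho = 0.90 (exact permutation p = 0.0046), with r = 0.93 without the 2 samples farthest from the median of *Ddc*. No pair passed the adjustment over 15 pairs for r, and the p-values for rho were not adjusted. The ratio of *Maob* to *Maoa*, both per length, was 0.730 ± 0.149 with CNO and 0.855 ± 0.063 with vehicle (SD, n = 4 each, two-sided exact permutation p = 0.143).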
